A study of Mus musculus with 16 samples.

Results

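The 9 genes described here encode the cytosolic and mitochondrial heat shock chaperones *Hspa8*, *Hspa4*, *Hsp90aa1*, *Hsp90ab1*, *Hspd1*, *Hspe1*, *Hsph1*, *Dnaja1* and *Dnajb1*. They were chosen by symbol from the 32285 genes of the RNA matrices, and each of the 9 was found once in all 8 matrices. The samples were nuclei of the microdissected dentate gyrus (DG) of 4 WT and 4 V321L mice, 2 females (F1, F2) and 2 males (M1, M2) of each genotype. V321L mice are homozygous for a missense mutation in *Nrg1*, a growth factor gene whose product also signals back to the nucleus of the cell that makes it. The age of these mice is not given in the labels. A missense change leaves the transcript in place, so the *Nrg1* counts could not check the genotype labels. Each mouse gave 1 Multiome library, in which RNA and open chromatin are read from the same nuclei.

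Chaperones bind unfolded or partly folded proteins and help them reach, or return to, their native state. HSP70 proteins clamp onto short hydrophobic stretches in a cycle of ATP hydrolysis, in which J proteins deliver the client and start the hydrolysis, and HSP110 proteins exchange the nucleotide. HSP90 proteins act later, on near-native clients such as kinases and steroid receptors, and the chaperonin pair of HSP60 and HSP10 encloses clients in the mitochondrial matrix. Several of these genes are transcribed at a basal rate in unstressed cells and are induced through heat shock elements in their promoters, to which heat shock factor HSF1 binds as a trimer. In the DG, granule cells (GCs) are the principal neurons, and the chaperones are transcribed in neurons and glia alike.

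The depth of the libraries differed between the genotypes. Unique molecular identifiers (UMIs) of RNA summed to between 4326426 and 14624265 in WT libraries and to between 15505354 and 23582057 in V321L libraries. GCs were gated by marker genes, and a WT mouse had 1240 to 2420 of them and a V321L mouse 813 to 1161. Their median UMI count lay between 1138.5 and 2041 in WT mice and between 3318.5 and 4687 in V321L mice. Of the UMIs of GCs, between 0.185% and 0.280% were mitochondrial in WT mice against between 0.414% and 1.17% in V321L mice. Ribosomal protein (RP) genes gave between 0.0497% and 0.117% of the UMIs in WT GCs and between 0.871% and 1.85% in V321L GCs. Each of the 6 classes compared had 1 to 4 of its own markers among its 10 leading genes by fold, and OPCs also had 1 marker of another class there. The gate used the same markers, so this is no independent check of the classes. Any pair of libraries shared between 1 and 13 barcodes among the 16406 nuclei. These differences in depth and in the mitochondrial and RP shares moved with genotype, and their part in the results below was not tested.

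The promoters are shown for *Hspe1*, which rose most among the members in V321L GCs, and for *Hsph1*, which did not pass the test. RefSeq sequences of GRCm38.p6 were held for 6 of the 9 members, from 250 bases before to 50 bases after a start site. None was held for *Hspa8*, *Hsp90aa1* or *Hsp90ab1*. A heat shock element is an array of alternating GAA and TTC units, so GAANNTTC and TTCNNGAA were searched. Each reads the same on the opposite strand, and 2 matches may overlap by 1 unit. Capitals mark every match.

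Hspe1 promoter, chr1:55087898-55088197, plus strand: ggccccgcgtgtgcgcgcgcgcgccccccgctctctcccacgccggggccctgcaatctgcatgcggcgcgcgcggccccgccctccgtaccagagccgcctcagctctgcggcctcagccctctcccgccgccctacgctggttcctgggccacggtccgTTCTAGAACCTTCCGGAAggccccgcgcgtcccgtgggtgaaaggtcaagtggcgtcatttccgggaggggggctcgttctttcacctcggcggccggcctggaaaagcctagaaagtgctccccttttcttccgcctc
Hsph1 promoter, chr5:149636266-149636565, minus strand: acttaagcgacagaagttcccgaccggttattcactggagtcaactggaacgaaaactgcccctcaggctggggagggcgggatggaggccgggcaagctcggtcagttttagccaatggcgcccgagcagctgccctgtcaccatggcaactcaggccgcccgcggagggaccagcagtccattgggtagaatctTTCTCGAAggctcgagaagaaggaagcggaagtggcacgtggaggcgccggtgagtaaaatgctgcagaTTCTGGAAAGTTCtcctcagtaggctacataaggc

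The *Hspe1* sequence held an unbroken run of overlapping matches, and the *Hsph1* sequence held 1 separate match and 1 overlapping pair. Either motif was present in 15.1% of all 32851 promoters, and an array of 3 units with 2 bases between them in 0.603%. Among the 6 members with a promoter, 4 held either motif and 3 held the array (*Hspe1*, *Hspd1* and *Hsph1*). Counted by promoter, as the shares over all promoters are, 5 of their 11 windows held either motif, and some of these windows overlap. *Dnaja1* held a single GAANNTTC, and no match was found in the windows of *Hspa4* and *Dnajb1*. *Hspd1* and *Hspe1* lie head to head on chromosome 1 with start sites 108 bases apart in the deposited gene table, so 1 of the *Hspd1* promoters covers the same array. A match to these letters is a description of the window and was not tested for binding.

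In GCs, 8 of the 9 chaperones were higher in V321L than in WT mice, against 38.8% of the 12326 genes tested that were called higher and 32% that were called lower. Levels are given as UMIs per 1000000 UMIs (CPM) of the summed GCs of a mouse. Differences are given as log2 fold changes (V321L over WT) after TMM scaling, with the standard error and the adjusted p of the quasi-likelihood test of edgeR, and 0.05 is the threshold. TMM sets the bulk of the genes near 0, and scaling by library size alone raised the median of all genes from 0.11 to 0.56. The split of calls moved with it, from 4781 higher and 3942 lower to 6647 higher and 2189 lower (53.9% and 17.8%). In bulk sums, fewer nuclei that use a gene and less RNA per nucleus cannot be told apart.

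Both cytosolic HSP90 genes and the constitutive HSP70 gene rose. *Hsp90ab1*, the constitutive cytosolic HSP90, was at 170.3, 73.5, 195.4 and 143.3 CPM in the GCs of WT F1, F2, M1 and M2. It was at 694.9, 385.5, 412.3 and 752.4 CPM in V321L F1, F2, M1 and M2, all above every WT mouse, and its log2 fold change was 1.55 ± 0.25 (SE, n = 4 mice per genotype, adjusted p = 8.02e-05). *Hsp90aa1*, the inducible cytosolic HSP90, was at 109.7, 62.6, 120.2 and 123.5 CPM in WT mice. In V321L mice it was at 355.7, 172.4, 227.7 and 413.2 CPM, again without overlap, with a log2 fold change of 1.07 ± 0.24 (adjusted p = 0.00122). *Hspa8*, the constitutive HSP70 that also uncoats clathrin vesicles, was at 165.8, 82.4, 116.6 and 105.4 CPM in WT mice and at 479.5, 243.4, 307.5 and 568.4 CPM in V321L mice. Its groups did not overlap, and its log2 fold change was 1.33 ± 0.24 (adjusted p = 0.00024).

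The chaperonin pair rose unequally. *Hspe1*, which encodes the HSP10 lid of the mitochondrial chaperonin, had 18, 15, 9 and 22 UMIs in all GCs of the WT mice F1, F2, M1 and M2 against 320, 239, 149 and 253 UMIs in V321L mice. This amounted to 5.43, 3.03, 5.41 and 5.95 CPM in WT mice and to 86.2, 42.7, 39.7 and 84.6 CPM in V321L mice. The log2 fold change of *Hspe1* was 3.25 ± 0.31 (adjusted p = 1.03e-06), the largest of the 9. *Hspd1*, which encodes the HSP60 barrel, was at 22.9, 15.8, 19.8 and 22.7 CPM in WT mice and at 60.3, 30.6, 27.5 and 67.2 CPM in V321L mice. Its groups did not overlap, but V321L F2 and M1 lay close to the WT range, and its log2 fold change was 0.73 ± 0.27 (adjusted p = 0.0233). The call on *Hspd1* was lost when either V321L F1 or V321L M2 was left out (0.59 and 0.52). It was also lost without WT F2 or WT M1 (0.62 and 0.64), when GCs were thinned to 1000 UMIs (0.58, adjusted p = 0.071), and among GCs with a mitochondrial share under 0.5% (0.33).

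The J proteins rose at very different levels of detection. *Dnaja1*, a J protein of the cytosol, was at 70.6, 53.9, 63.7 and 71.4 CPM in WT mice and at 161.3, 114.1, 107.7 and 169.3 CPM in V321L mice, without overlap, with a log2 fold change of 0.65 ± 0.15 (adjusted p = 0.00171). *Dnajb1*, the HSP40 that works with stress-inducible HSP70, gave only 12 UMIs in the 6455 WT GCs and 106 in the 3906 V321L GCs. WT mice held 6, 2, 2 and 2 of them, and V321L mice 39, 24, 19 and 24. Its log2 fold change was 2.43 ± 0.48 (adjusted p = 0.000432), from counts so low that it could not be tested after thinning or among GCs with a mitochondrial share under 0.5%.

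The HSP110 members differed from each other. *Hspa4* (APG-2), a nucleotide exchange factor, was at 77.2, 65.1, 72.7 and 69.7 CPM in WT mice and at 129.2, 131.2, 124.8 and 147.2 CPM in V321L mice. The SDs of *Hspa4* were the smallest of any member relative to its means, and the log2 fold change was 0.46 ± 0.10 (adjusted p = 0.00098). *Hsph1* (HSP105), the heat-inducible HSP110, was at 48.2, 24.2, 45.1 and 40.8 CPM in WT mice and at 64.3, 36.7, 46.7 and 77.3 CPM in V321L mice. The groups overlapped, and its log2 fold change was 0.08 ± 0.22 (adjusted p = 0.751). With library sizes alone it was 0.51 (adjusted p = 0.0791), and it fell below 0 with DESeq2 (-0.0060).

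**Figure D1:**
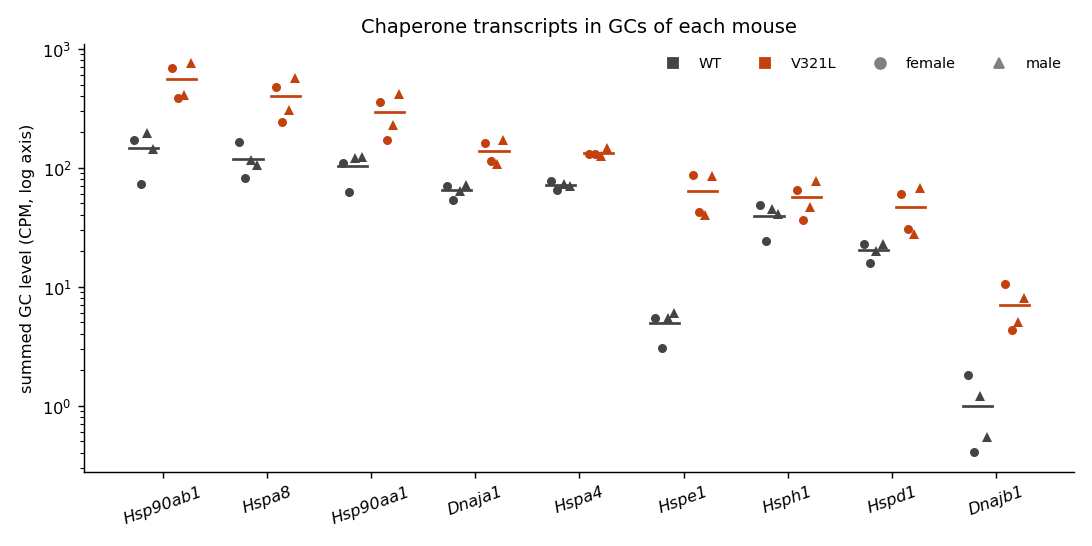
Level of each member in the summed GCs of every mouse, in CPM on a log axis, with circles for females, triangles for males and a line at the mean of each genotype (4 mice each). V321L points lie above all WT points for every member but Hsph1, and Hspe1 is the most widely separated, from 3.03 to 5.95 CPM in WT and from 39.7 to 86.2 CPM in V321L.

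Within the V321L group, the mice F1 and M2 held the highest levels of 8 of the 9 members, *Hspa4* being the exception. The same mice had the highest mitochondrial share (0.988% and 1.17% of GC UMIs) and RP share (1.73% and 1.85%) and the lowest GC median UMI counts (3319 and 3318.5). Without both mice, 7 of the 9 members were still called higher, beside 4463 of 12873 genes. *Hspe1* then had a log2 fold change of 2.68, *Hsp90ab1* of 1.09 and *Hspa8* of 0.83, while *Hspd1* was at 0.11 (adjusted p = 0.611) and *Hsph1* at -0.31 (adjusted p = 0.185). The part of the mitochondrial and RP shares in these values was not tested.

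The share of GCs with at least 1 UMI gave a view per nucleus. *Hsp90ab1* was detected in 20.9% ± 6.14 of WT GCs and in 78.0% ± 6.31 of V321L GCs (SD, n = 4 mice each). *Hspe1* was detected in 1.05% ± 0.440 of WT GCs and in 20.3% ± 3.92 of V321L GCs, and *Dnajb1* in 0.210% ± 0.172 and 2.58% ± 0.542. All V321L mice lay above all WT mice for each of the 9 members, with an exact permutation p of 0.0286, the smallest that 4 against 4 mice allow (two-sided, also 0.0286 after adjustment over 9). V321L nuclei were deeper, so each GC was then thinned to 1000 UMIs, which left out 1492 WT and 46 V321L GCs. At equal depth the shares in WT and V321L mice were 12.6% ± 4.62 and 39.9% ± 11.7 for *Hsp90ab1*, 0.457% ± 0.237 and 5.46% ± 2.00 for *Hspe1*, and 0.103% ± 0.0223 and 0.538% ± 0.349 for *Dnajb1*. Again 8 members did not overlap (exact permutation adjusted p = 0.0321), and *Hsph1*, at 3.64% ± 1.03 and 5.03% ± 1.34, overlapped (exact permutation adjusted p = 0.200). *Hspd1* separated narrowly in this 1 random thinning, with a highest WT share of 2.72% and a lowest V321L share of 2.74%. *Dnajb1* rested on 1, 2, 1 and 1 GCs with a UMI in WT F1, F2, M1 and M2 and on 11, 3, 4 and 3 in V321L mice. Shares were computed for the 9 members only, so no share of all genes can be set beside these counts at either depth. In the edgeR fit on the thinned sums, 6 of the 8 members tested were called higher, beside 3189 of 9221 genes. No cell class is known to lack these genes, so no class could serve as a background, and the free RNA of the libraries is given below instead.

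The rise was then set beside genes of like expression, because the fold changes of all genes varied with their level. For each member the 200 tested genes nearest in mean level were taken. Around *Hsp90ab1*, *Hspa8* and *Hsp90aa1* these neighbours had medians of -0.82, -0.68 and -0.61 on the log2 scale. The members themselves rose and exceeded 97.5%, 98.5% and 94.5% of their neighbours. *Hspe1* exceeded 96% and *Dnajb1* 93% of neighbours whose medians were 0.41 and 0.25. *Dnaja1* and *Hspa4* exceeded 79% and 77%, with neighbours at a median of -0.33 for both. *Hspd1* exceeded 63% of its neighbours, which rose themselves (median 0.42, with 52% of them called higher), so its difference was near that of genes at its level. *Hsph1* exceeded 52%, and the median of its neighbours (0.05) lay within the standard error of its own log2 fold change.

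**Figure D2:**
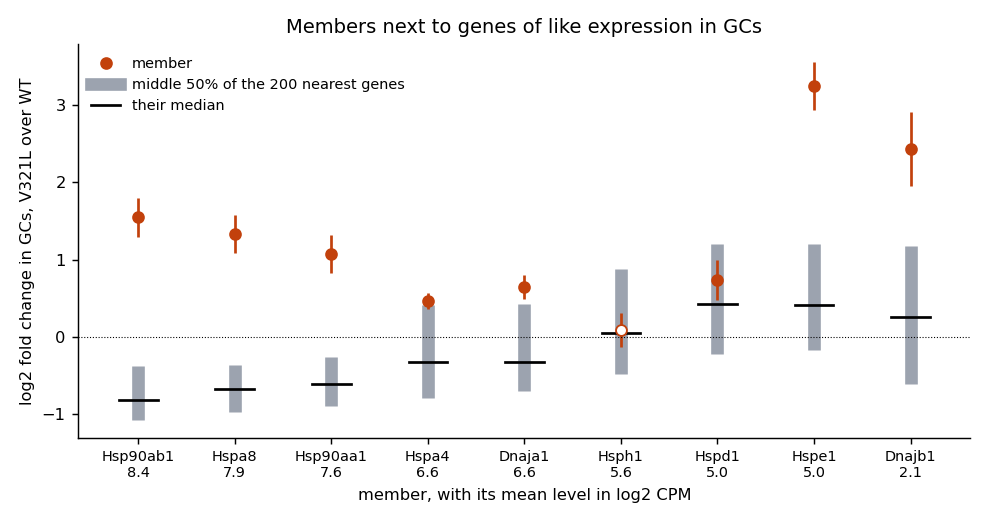
Log2 fold change of each member in GCs (V321L over WT, orange point with its SE, open where the adjusted p missed 0.05) beside the median (black line) and the middle 50% (grey bar) of the 200 tested genes nearest in mean level. Members are ordered by mean level in log2 CPM, and Hsp90ab1, Hspa8, Hsp90aa1, Hspe1 and Dnajb1 lie far above their grey bars while Hspd1 and Hsph1 lie within theirs.

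Free RNA, read from barcodes with at most 100 UMIs, held higher levels of these transcripts than GCs did, except for *Hspa4* in V321L mice. There the level of *Hspa4* in free RNA was 0.857 to 1.12 times that in GCs. *Hspa8* was at 1400 ± 371 CPM in the free RNA of WT libraries and 1763 ± 204 CPM in that of V321L libraries (SD, n = 4 each), and *Hsp90ab1* at 1517 ± 213 and 1810 ± 244 CPM. *Hspe1* was at 54.6 ± 7.79 and 424.4 ± 71.1 CPM, and *Hsph1* at 304.0 ± 51.9 and 137.9 ± 28.7 CPM. Of the 9 members, 5 were called higher in V321L free RNA, beside 37.6% of all 11087 genes tested, and 1 was called lower, beside another 37.6%. The log2 fold changes called were 3.34 for *Hspe1*, 1.53 for *Dnajb1*, 0.85 for *Dnaja1*, 0.70 for *Hspa8*, 0.62 for *Hsp90ab1* and -0.77 for *Hsph1*. *Hsp90aa1* (0.23), *Hspd1* (0.30) and *Hspa4* (-0.02) did not pass. With library sizes alone the calls on *Hspa8* and *Hsp90ab1* in free RNA were lost (0.32 and 0.24), and *Hspa4*, at 172.0 ± 25.1 CPM in WT and 133.1 ± 14.4 CPM in V321L libraries, was called lower (-0.39, adjusted p = 0.0289). That left 3 members higher and 2 lower, beside 30.2% and 46.1% of all genes. RP genes in free RNA had a median of 3.95, with 80 of 80 called higher.

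How much of each GC level free RNA could supply depended on how its share was estimated. From mitochondrial UMIs the share was 1.79% to 3.70% of GC UMIs in WT mice and 2.39% to 8.71% in V321L mice. By that measure free RNA could supply, on average over mice, 31.3% of the *Hspa8* level in WT GCs and 24.1% in V321L GCs, and 30.3% and 37.3% of that of *Hspe1*. After subtraction of this part, the same number of members was called higher, 8 of 9, beside 4680 of 12116 genes. From markers of other cell classes the share came to 19.7% to 27.0% in WT mice and 9.49% to 18.2% in V321L mice. Free RNA was 6.60% to 10.3% mitochondrial in WT libraries and 13.4% to 20.5% in V321L libraries. GCs held 0.185% to 0.280% and 0.414% to 1.17%, so the marker share would bring in more mitochondrial UMIs than GCs held in either genotype. That estimate would supply, on average, more than WT GCs held of 7 members, from 182% of the level of *Hspd1* through 278% for *Hspe1* to 303% for *Hsp90aa1*, and 95.4% for *Dnaja1* and 58.8% for *Hspa4*. In V321L GCs it would supply between 80.3% and 116% of the *Hspe1* level by mouse, and between 14.4% and 65.1% of the other members on average. After subtraction of the marker estimate *Hspe1* had 0 UMIs in every WT mouse and 47 in V321L F2, with 0 in the other V321L mice. Its rise in GCs could therefore not be tested under that estimate. The fold changes of the members that could be tested were not interpreted, since most had no UMIs left in WT mice. The difference between GCs and free RNA was tested directly, with TMM over both together, and 33.3% of all 13662 genes were called in either direction. The genotype effect in free RNA minus that in GCs was -0.62 for *Hsp90ab1* (adjusted p = 0.016), -0.51 for *Hsp90aa1* (adjusted p = 0.0407), -0.57 for *Hsph1* (adjusted p = 0.00814) and 0.52 for *Dnaja1* (adjusted p = 0.0124). For *Hspe1* the difference was 0.43 ± 0.27 and did not pass (adjusted p = 0.234). With library sizes alone the median of all genes moved to -1.09 and all 9 members, *Dnaja1* included, were called with a smaller effect in free RNA. Beside them, 8048 of the 13662 genes were called lower and 467 higher in that fit.

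Members also rose in other cell classes of the DG, where free RNA was not subtracted. In other excitatory neurons, 6 of the 8 members tested were called higher, beside 25.7% of 7480 genes. *Hspe1* rose by 3.26 ± 0.53, *Hsp90ab1* by 1.65 ± 0.34, *Hspa8* by 1.22 ± 0.33, *Hsp90aa1* by 1.04 ± 0.29, *Dnaja1* by 0.92 ± 0.34 and *Hspa4* by 0.70 ± 0.20 on the log2 scale, with *Hspd1* (0.48 ± 0.40) and *Hsph1* (0.27 ± 0.31) short of the threshold. In GABAergic neurons, 3 of 5 members passed (background 18.8% of 3466 genes). These were *Hspa8* at 1.37 ± 0.34, *Hsp90ab1* at 1.17 ± 0.28 and *Hsp90aa1* at 0.83 ± 0.28. In oligodendrocyte precursors (OPCs), all of the 3 members deep enough to be tested were higher, beside 18.2% of 1952 genes, namely *Hsp90ab1* (2.40 ± 0.39), *Hspa8* (1.67 ± 0.30) and *Hsp90aa1* (1.5 ± 0.36).

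Astrocytes or radial glia and oligodendrocytes fell to 17 and 13 nuclei in WT M1 and were tested as added classes. In astrocytes or radial glia, 2 of 5 members were called higher (background 23.2% of 2622 genes), *Hspa4* by 1.14 ± 0.33 and *Hspa8* by 0.89 ± 0.29. *Hsp90aa1* was at 0.25 ± 0.33 there and did not pass. Without WT M1, which had only 17 of these nuclei and 13 *Hsp90ab1* UMIs in them, 4 members were called, and without WT F2 or V321L F1 only 1. In oligodendrocytes, the myelinating glia, 3 of 5 were called higher (background 22% of 1697 genes), *Hsp90ab1* by 2.31 ± 0.40, *Hspa8* by 1.51 ± 0.38 and *Hsp90aa1* by 1.47 ± 0.30. *Hspe1* had 0 UMIs among the 156585 UMIs of WT oligodendrocytes and 53 among 706531 in V321L mice. Taking 3 counts over the WT group as the limit that a count of 0 allows, the level in V321L oligodendrocytes was 3.92-fold that limit. The limit covers counting error in WT mice only. Free RNA, where *Hspe1* was at 54.6 CPM in WT and 424.4 CPM in V321L libraries, was not subtracted here. Its part in this value was not tested.

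**Figure D3:**
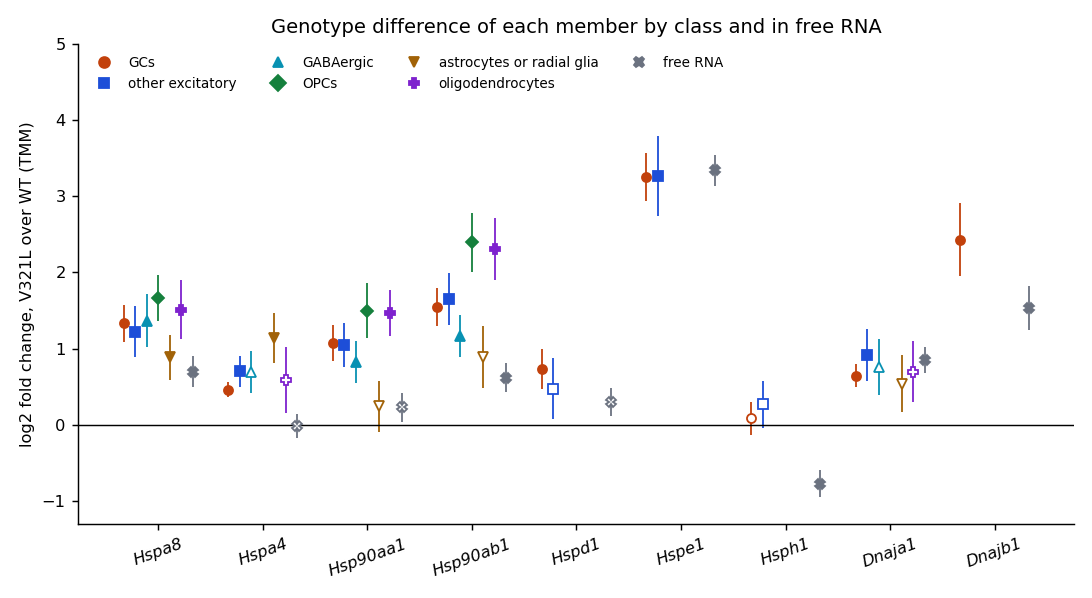
Log2 fold change (V321L over WT, TMM scaled, with SE) of each member in GCs, in the other 5 classes and in free RNA, with filled symbols where the adjusted p was under 0.05 and symbols missing where a member was too low to test. Hspa8 and Hsp90ab1 lie above 0 in every class, Hspe1 is near 3.3 in GCs, other excitatory neurons and free RNA, and Hsph1 is below 0 in free RNA.

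For no member was the genotype effect called different between GCs and another class. Beside 0 members, the calls over all genes in either direction were 0.773% of 11377 for other excitatory neurons, 1.4% of 10427 for GABAergic neurons, 3.41% of 10620 for OPCs, 2.64% of 10916 for astrocytes or radial glia and 3.33% of 10539 for oligodendrocytes. At an unadjusted p under 0.05 there were 0, 1, 0, 2 and 0 members in the same order, and edgeR was the only tool run here. The nearest to the threshold was *Hsp90aa1* in astrocytes or radial glia, where the effect minus that in GCs was -0.98 ± 0.32 (adjusted p = 0.0734). With library sizes alone 3 members were called lower in that class, beside 121 genes lower and 105 higher of 10916. In other excitatory neurons, where the test was sharpest, the difference from GCs was 0.08 ± 0.19 for *Hsp90ab1* and -0.07 ± 0.19 for *Hspa8*. The intervals in the glial classes were wide, with standard errors of 0.32 to 0.43 for *Hspa8* and *Hsp90ab1*, so differences of that size were not detectable.

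Few members differed between the classes of WT mice. *Hsp90aa1* was higher than in GCs in other excitatory neurons by 0.38 (adjusted p = 0.00942), in GABAergic neurons by 0.63 (adjusted p = 0.0131) and in astrocytes or radial glia by 0.71 (adjusted p = 0.0264). *Hspa8* was higher in astrocytes or radial glia by 0.76 (adjusted p = 0.0105). These were the only calls of members, 1 of 7 tested in other excitatory neurons, 1 of 7 in GABAergic neurons and 2 of 7 in astrocytes or radial glia, with 0 of 7 in OPCs and in oligodendrocytes (1 and 0 members at an unadjusted p under 0.05, with edgeR as the only tool). Over all genes, calls in either direction made up 36%, 29.2%, 34.8%, 20.8% and 23.5% in the same order of classes. The *Hsp90aa1* call in other excitatory neurons was lost without WT F2 and that in GABAergic neurons without WT F1 or WT F2. No call in astrocytes or radial glia was left without WT F2 or WT M2, and 1 was left without WT M1.

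In V321L mice all 9 members could be tested between classes. In astrocytes or radial glia 0 were higher than in GCs and 3 were lower, *Hsph1* by -1.34 (adjusted p = 0.000664), *Hsp90ab1* by -0.56 (adjusted p = 0.0129) and *Hsp90aa1*, which had been higher there in WT mice, by -0.54 (adjusted p = 0.0193). In OPCs 3 were lower, namely *Dnaja1* (-0.75), *Hspa8* (-0.51) and *Hsp90ab1* (-0.49). In GABAergic neurons *Hsp90ab1* was lower (-0.60), and *Hsp90aa1*, higher in WT mice, was at -0.02 and not called. *Hsp90aa1* was higher in oligodendrocytes (0.89), and no member was called in other excitatory neurons (2 at an unadjusted p under 0.05). Over all genes, calls in either direction made up 45.3% in astrocytes or radial glia, 31.1% in OPCs, 29.6% in GABAergic neurons, 44.1% in oligodendrocytes and 22.5% in other excitatory neurons. The test of the change itself is that of the genotype effect between classes, which called no member.

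The mean levels of *Hspa8* in WT mice were 224.0 ± 60.8 CPM in astrocytes or radial glia, 164.1 ± 58.8 CPM in GABAergic neurons and 143.6 ± 60.8 CPM in oligodendrocytes (SD, n = 4). They were 126.5 ± 36.7 CPM for other excitatory neurons, 117.6 ± 35.2 CPM for GCs and 113.7 ± 40.9 CPM for OPCs. In V321L mice it ran from 416.3 ± 209.0 CPM in GABAergic neurons to 302.5 ± 66.3 CPM in OPCs, with GCs at 399.7 ± 150.3. *Hsp90ab1* ran in V321L mice from 687.7 ± 230.5 CPM in oligodendrocytes through 561.3 ± 189.3 in GCs to 372.0 ± 132.7 CPM in GABAergic neurons. Of 45 pairs of neighbours in these orders (5 steps for each of the 9 members), 44 differed by less than the sum of their SDs in WT mice and 45 in V321L mice. The exception was *Hspe1* in WT mice, at 4.86 ± 2.40 CPM in other excitatory neurons and 0 in oligodendrocytes. WT oligodendrocytes held 156585 UMIs, in which 3 counts would be 19.2 CPM. A level of 0 there can therefore not be told from 4.86 CPM. Neighbours in a sorted order are the closest classes, so this count cannot show that the classes are alike. In V321L mice, *Hsp90aa1* was at 518.6 ± 64.3 CPM in oligodendrocytes and at 196.7 ± 79.0 CPM in astrocytes or radial glia. The count also leaves out that all classes came from the same mice, which the tests against GCs above took into account. Microglia, neuroblasts, Cajal-Retzius cells and vascular cells had between 1 and 3 nuclei in at least 1 WT mouse and were not compared.

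The unequal rise of the chaperonin pair was then measured within each mouse, a comparison chosen after the values were seen. The ratio of *Hspe1* to *Hspd1* UMIs in GCs was 0.237, 0.192, 0.273 and 0.262 in WT F1, F2, M1 and M2. It was 1.43, 1.40, 1.45 and 1.26 in the V321L mice, with no overlap (exact permutation p = 0.0286, also 0.0286 adjusted over 4 ratios). In free RNA the ratio was 0.401 ± 0.186 in WT and 2.88 ± 0.199 in V321L libraries (SD, n = 4, exact permutation p = 0.0286). The ratio of *Hsp90ab1* to *Hsp90aa1* in GCs moved less, from 1.38 ± 0.245 to 1.96 ± 0.198 (SD, n = 4, exact permutation p = 0.0286). *Hspe1*, *Hspd1* and *Dnaja1* have pseudogenes in the RefSeq gene table, so reads shared with near-identical copies may make their counts less certain. Such reads were not examined for any member.

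No member was called different in promoter accessibility. ATAC counts in peaks within 1 kb of a start site were summed over GCs, and 0 of the 9 members were called, with 2 of 10389 genes called in all (0.0193%). At an unadjusted p under 0.05 there were 0 members and 956 genes, and edgeR was the only tool run on these counts. The shared *Hspd1* and *Hspe1* promoter, whose array of heat shock elements is shown above, was at 167.2 ± 9.70 counts per 1000000 promoter counts in WT GCs and 182.8 ± 5.94 in V321L GCs (SD, n = 4). Its log2 fold change was 0.11 ± 0.08 (adjusted p = 0.678), against 3.25 for *Hspe1* RNA. *Hsp90ab1* was at 0.05 ± 0.17, *Hsp90aa1* at 0.05 ± 0.08 and *Hspa8* at -0.06 ± 0.09 on the same scale. The lowest was *Dnaja1* at -0.18 ± 0.09 (adjusted p = 0.552). Each promoter rested on between 201 and 1431 ATAC counts per mouse, and peaks had been called in each library on its own.

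**Figure D4:**
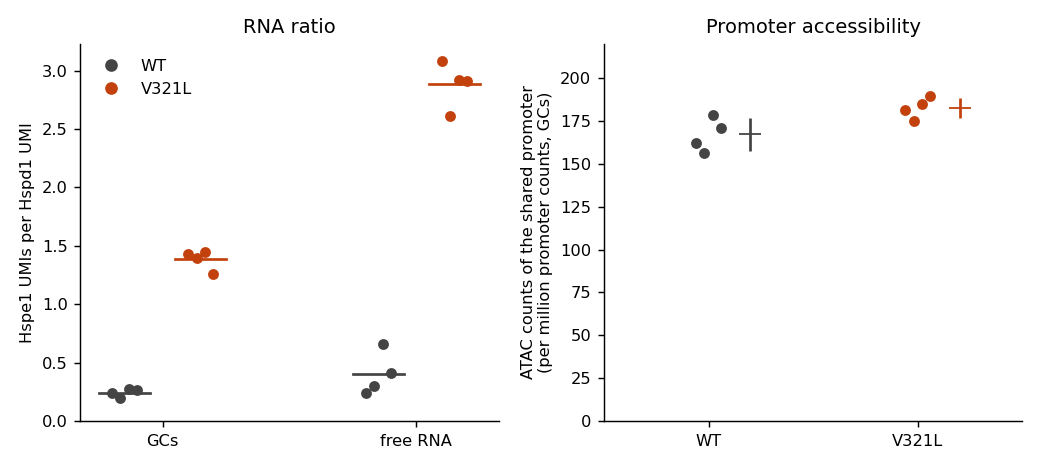
Left, Hspe1 UMIs per Hspd1 UMI in GCs and in free RNA of each mouse, with a line at the mean of each genotype. Right, ATAC counts of the promoter the pair shares in GCs of each mouse, per 1000000 promoter counts, with mean ± SD beside the points (4 mice per genotype). The RNA ratio in GCs runs from 0.192 to 0.273 in WT mice and from 1.26 to 1.45 in V321L mice, while the ATAC values overlap, from 156.6 to 178.8 in WT and from 175.2 to 189.4 in V321L.

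The other genes of the chaperone system were followed through 7 lists of 89 genes that left out the 9 members. Of these, 77 could be tested in GCs, and 43 were higher and 14 lower in V321L mice (55.8% and 18.2%, beside 38.8% and 32% of all genes), with a median log2 fold change of 0.66 beside 0.11 for all genes. Scaled by library size alone, 59 were higher and 2 lower (76.6% and 2.60%, beside 53.9% and 17.8%). The share of genes called higher varied with level, from 6.5% of the neighbours of *Hsp90ab1* to 52.5% of those of *Hspe1*. The lists were not set beside genes of like expression, so an excess over all genes may reflect their level. Subunits of the cytosolic chaperonin CCT and of prefoldin, which hands it actin and tubulin, were higher for 11 of 14 genes (78.6%) and lower for 1, with a median of 1.07. Cochaperones and exchange factors were higher for 15 and lower for 5 of 23 (65.2% higher). J proteins were higher for 12 and lower for 5 of 25 (48% higher, beside 38.8% of all genes). Other HSP70 and HSP110 genes were higher for 2 and lower for 2 of 8, 25% each way and below both shares of all genes. Neither of the 2 other HSP90 genes, *Hsp90b1* of the endoplasmic reticulum (-0.14 ± 0.13) and *Trap1* of mitochondria (-0.19 ± 0.16), passed the test. Of the small heat shock protein genes, 1 of the 2 tested was higher. Of the heat shock factors and their binding protein, 2 of 3 tested genes were higher and 1 lower.

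Among those genes at a mean of at least 10 CPM, *Pfdn5* and *Pfdn6*, prefoldin subunits, rose most, from 4.56 ± 0.933 to 97.6 ± 39.7 CPM and from 2.23 ± 0.815 to 40.2 ± 15.4 CPM (SD, n = 4), with log2 fold changes of 3.90 (adjusted p = 3.31e-07) and 3.74 (adjusted p = 9.44e-07). The next were *Hsbp1*, which binds HSF1 and rose by 3.18, *Ahsa1*, an activator of the HSP90 ATPase, by 2.76 and *Stub1*, the ubiquitin ligase CHIP, by 2.63 on the log2 scale. Free RNA was not subtracted from these values. By the mitochondrial estimate it could supply, on average, 0.897 CPM of *Pfdn5* in WT GCs and 47.4 CPM in V321L GCs. For *Pfdn6* it could supply 0.298 and 11.4 CPM. The largest falls were in *Dnajc13* (-0.92) and *Dnajc1* (-0.86), both J proteins of membranes, *Hspa4l* (-0.65), the paralogue of *Hspa4*, *Grpel2* (-0.61) and *Hsf2* (-0.56). With library sizes alone only *Dnajc13* (-0.48) and *Dnajc1* (-0.41) remained called lower among these 5.

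The strongly heat-inducible HSP70 genes were barely detected in GCs. *Hspa1a* and *Hspa1b*, named outside the rule and after their values were seen, gave 6 UMIs each in all WT GCs, and 40 and 31 UMIs in V321L GCs. They were at 0.395 ± 0.379 and 0.437 ± 0.293 CPM in WT and 2.59 ± 1.23 and 2.24 ± 1.80 CPM in V321L mice (SD, n = 4), too low for the test, and they are near-identical copies whose reads cannot be told apart with certainty. *Hspa5*, the HSP70 of the endoplasmic reticulum, was at -0.18 ± 0.18 on the log2 scale and did not pass. *Hsf1* itself was at 13.1 ± 1.87 CPM in WT and 28.6 ± 4.23 CPM in V321L GCs and was called higher (0.71, adjusted p = 0.000974). RP genes stood further out than any chaperone list, with 80 of 80 tested called higher and a median of 3.90, while 8 of the 13 mitochondrially encoded genes were higher and 4 lower.

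The genes most like *Hsp90ab1*, the member with the most UMIs, were sought over 32 sums of nuclei (4 classes in 8 mice) among 9489 genes. The highest Pearson r on log2(CPM + 1) were those of *Rpl26* (0.95), *Slc25a4* (0.94), *H2afz* (0.94), *Fth1* (0.93) and *Atp5o* (0.92). Of the members, *Hspa8* followed at rank 11 (0.91), and *Dnaja1* (0.81) and *Hsp90aa1* (0.80, rank 369) lay further down. The points share libraries, genotype and depth, so these values are a description.

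Males and females did not differ detectably in these genes. In GCs 0 of 9 members were called between the sexes (0.0487% of 12326 genes in either direction), and 0 of 9 for the interaction of genotype with sex, where 0% of all genes were called. At an unadjusted p under 0.05 there were 0 members in both comparisons and 317 genes in the second, with edgeR as the only tool. The difference between males and females was 0.33 ± 0.23 for *Hsp90aa1*, the furthest from 0, on the log2 scale. With 2 mice per sex and genotype, the standard errors of the genotype-by-sex differences ran from 0.21 for *Hspa4* to 1.17 for *Dnajb1*.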

How the data were processed

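Per the labels, nuclei of the DG of each mouse were profiled by snRNA-seq and ATAC (Multiome). The authors deposited unnormalized counts written by Cell Ranger ARC 2.0.2 for all barcodes. The submitters' processing notes name mm10, Cell Ranger, Seurat and Signac. Nuclei had over 500 and under 8916.1 UMIs, over 250 and under 3307.5 genes, at least 500 ATAC counts, under 2.787% of mitochondrial UMIs and a Scrublet score at most 2 SD above the library mean. The upper UMI, gene and mitochondrial limits left out more V321L candidates. They kept 1834 of 1947, 3762 of 3857, 1981 of 2025 and 2253 of 2408 in WT F1, F2, M1 and M2. In V321L mice they kept 2062 of 2872, 2019 of 2463, 1515 of 1953 and 1589 of 2501. Nuclei over the mitochondrial limit were not analysed. Classes were gated on UMIs of marker genes (posterior of at least 0.99, at least 2 markers). A class was compared when every mouse had 20 or more of its nuclei, and later 10 or more.

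Counts were summed per mouse and class and tested with edgeR 4.0.16 in R 4.3.3 (TMM, filterByExpr, quasi-likelihood test, Benjamini-Hochberg). DESeq2 1.42.0 was the second tool in GCs. Shares and ratios were compared by two-sided exact permutation tests over 70 assignments (scipy 1.17.1, Python 3.11.15). Each library was 1 mouse, so p-values measure the spread between mice. On simulated data with 200 genes changed by 1 on the log2 scale, the comparison in GCs recovered 128 with 5 false calls. In the GCs themselves 4781 of 12326 genes were called higher and 3942 lower. Far fewer genes changed in the simulation, so its rates need not hold for these data.

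The members and lists were chosen with earlier results of these data known. Named were the 9 members, the 5 largest rises and falls among listed chaperones (adjusted p under 0.05, mean of at least 10 CPM) and the 5 genes most like *Hsp90ab1*. Alternatives changed normalization, filters, thinning, free RNA, covariates and mice. Astrocytes or radial glia and oligodendrocytes, the test against free RNA, the UMI ratios, the mitochondrial estimate of free RNA, and the fits without mitochondrial and RP genes and without V321L F1 and M2 were added after seeing the data. Fragments and other assays were not analysed here.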

Additional observations from a re-analysis of the deposited data

Results flagged for a closer look

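The genotype effect on 4 of the 9 members differed between the free RNA and the GCs of the same mice, by an interaction test in edgeR. Over all 13662 genes, 33.3% were called in either direction. Free RNA minus GCs was -0.62 for *Hsp90ab1*, -0.51 for *Hsp90aa1*, -0.57 for *Hsph1* and 0.52 for *Dnaja1* on the log2 scale after TMM. *Hsp90ab1* and *Hsp90aa1* were higher in V321L GCs by 1.55 and 1.07 and in V321L free RNA by 0.62 and 0.23, the last of which did not pass. *Hsph1* was at 0.08 in GCs and -0.77 in free RNA. *Dnaja1* was at 0.65 and 0.85. GCs and free RNA were scaled apart in these fits and together in the interaction test. The separate values therefore do not subtract to the differences above for any of the 4. With library sizes alone, the sign for *Dnaja1* turned. In each of 36 groups of 4 mice (9 members, GCs and free RNA, both genotypes), the gap of the highest or lowest mouse was also compared with the range. None passed, where about 1 in 20 such groups passes without any cause.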

How the results depend on the processing

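In GCs the number of members called higher was between 6 and 8 under all alternatives run, the replicate block included. The lowest, 6, came from thinning to 1000 UMIs and from a mitochondrial share under 0.5%, where *Dnajb1* could not be tested. Over the members tested, the median log2 fold change was 1.07 in the main fit. It was 0.83 after thinning, 0.60 under the mitochondrial limit (8 members tested in each) and 0.56 without both V321L F1 and M2. In the same order, 4781 of 12326, 3189 of 9221, 4007 of 11189 and 4463 of 12873 genes were called higher. The number of members called higher was 7 without WT F2, WT M1, V321L F1 or V321L M2 (range over single mice 7 to 8). It was 7 without V321L F1 and M2 together, and 7 of 7 tested after subtraction of the marker estimate of free RNA. That set lacked *Hspe1* and *Dnajb1*, which could not be tested, and held *Hsph1*, called higher there with 0 UMIs left in every WT mouse. *Hsph1*, not called, turned to -0.0060 with DESeq2, -0.17 under the mitochondrial limit and -0.31 without V321L F1 and M2, and lay between -0.11 and 0.26 with single mice left out. Among the members called between genotypes in GCs, *Hspd1* was the only one that lost its call in a GC fit that tested it.

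Same-numbered WT and V321L mice correlated in their deviations by between -0.107 and 0.275, and only 1 of the 4 WT mice matched its own number best, so the numbers did not pair the mice. With the replicate block, 8 members were called, with 4693 genes higher and 3880 lower.

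In free RNA 4 to 6 members were called. *Hsp90aa1* turned to -0.15 with library sizes and to -0.27 in barcodes with at most 20 UMIs, *Hspd1* turned to -0.0794 with library sizes, and *Hspa4* lay between -0.0466 and 0.0905 with single mice left out and was called lower with library sizes (-0.39). With library sizes 9 members in place of 4 differed in effect between GCs and free RNA, 3 in place of 0 between GCs and astrocytes or radial glia, and 1 in place of 0 between WT oligodendrocytes and WT GCs. Among V321L mice the members that differed from GCs numbered 0 in place of 1 in other excitatory neurons, 3 in place of 0 in OPCs (all lower) and 1 in place of 0 in oligodendrocytes (higher). In GABAergic neurons the calls went from 1 higher in WT mice (*Hsp90aa1*) to 1 lower in V321L mice (*Hsp90ab1*). In astrocytes or radial glia they went from 2 higher to 3 lower, and only *Hsp90aa1* was called in both genotypes. In both classes 7 members were tested in WT and 9 in V321L mice. Calls over all genes made up 29.2% and 29.6% in GABAergic neurons. They made up 34.8% and 45.3% in astrocytes or radial glia. The interaction of class and genotype after TMM called no member, and the cause of the differing calls was not tested. With single mice left out, members called between genotypes numbered 2 to 5 in GABAergic neurons and 1 to 4 in astrocytes or radial glia. In WT mice those called against GCs numbered 0 to 1 in other excitatory neurons, 0 to 1 in GABAergic neurons and 0 to 3 in astrocytes or radial glia.

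Shares of GCs were not tested with a mouse left out, since an exact permutation test of 3 against 4 mice cannot go below p = 0.0571. They were computed for the members only, so no share of all genes stands beside these counts. With at least 1 UMI required, 6 members passed at 500 UMIs, and *Hspd1*, *Dnajb1* and *Hsph1* did not. With at least 2 UMIs required, 8 passed at full depth, 6 at 1000 UMIs and 0 at 500 UMIs, where the smallest exact permutation adjusted p was 0.0857 and 3 members had an unadjusted exact permutation p of 0.0286.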
